A study of Homo sapiens with 26 samples.

Results

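The genes described here are 36 human genes of homologous recombination and Fanconi repair, measured by RNA-seq in the lines KYSE180, TE6 and KYSE150, all 3 derived from squamous cell carcinoma of the esophagus (ESCC). They were taken from a list of gene symbols that was chosen with earlier results of these data known. Each symbol had to be present in all 5 deposited tables with a mean of at least 10 normalized read counts in every table. All 36 met this rule, out of 26485 symbols listed and 11337 that met the same minimum in all 5 tables. KYSE180 cells had been transfected with a control siRNA (siCont) or an siRNA against BRDT (siBRDT) in 1 experiment with 3 libraries per group, and with siCont or an siRNA against TP63 (siTP63) in another with 2 libraries per group. TE6 cells had received siCont, siBRDT or siTP63, with 2 libraries per group in 1 experiment, so that both TE6 comparisons share their control libraries. KYSE150 cells had received siCont or siTP63, with 2 libraries per group, or had been electroporated with a BRDT expression plasmid (BRDT-OE) or the empty control vector, with 3 libraries per group. Per the study's methods, siRNA-treated cells were collected 48 h after transfection, while the time after electroporation and the particular siRNA sequence behind each library were not given in the sources used here. BRDT is a bromodomain protein of the BET family that is normally made in the testis, and TP63 encodes p63, a transcription factor of squamous epithelium. The comparisons ask which genes depend on BRDT, and how their response relates to that of the p63 program.

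Homologous recombination repairs a broken DNA duplex, or a stalled replication fork, by copying the sister chromatid. BRCA1 with BARD1 promotes the trimming of the broken ends, PALB2 and BRCA2 prepare the exposed strand for the search for its partner, and RAD51C, XRCC2 and XRCC3 assist that step. The Fanconi pathway unhooks DNA strands that are covalently linked to each other. Its core complex (FANCA, FANCC, FANCE, FANCF, FANCG, FANCL and FANCM among the members) and the ubiquitin-conjugating enzyme UBE2T attach ubiquitin to FANCD2 and FANCI, and USP1 removes it. ATM, ATR, CHEK1 and CHEK2 are the kinases that signal damage to the cell cycle. Many of these genes are transcribed mainly in proliferating cells, under the control of the E2F, RB and MuvB factors, and are at their highest around S phase.

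The libraries held 7582089 to 19372441 reads assigned to genes. BRDT was lower in both siBRDT groups (log2 fold change -2.76 in KYSE180 and -2.23 in TE6) and higher in BRDT-OE (10.6, against 6 to 17 reads per control library). TP63 was lower in KYSE180 and TE6 siTP63 (-1.71 and -4.45), and by -2.34 in KYSE150 siTP63, where limma gave an adjusted p of 0.082. TP63 also fell under siBRDT, by 0.58 on the log2 scale in KYSE180 and by 1.15 in TE6. All 9 squamous markers fixed for the study (KRT5, KRT14 and others) were detected in every group. TE6 siBRDT replicate 1 stood apart, with 20995 symbols above 0 against 16458 to 17569 in the other TE6 libraries, and the replicates of both KYSE150 groups of the TP63 experiment differed the most, with a chi-square per gene of 33.4 and 60.2 against 1.8 to 23.5 for the other replicate pairs. The labels do not say whether replicates came from separate cultures, so p-values measure the spread between these libraries, which may be technical.

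In the control libraries the members differed widely in level (plot of control levels). In RPKM, reads scaled for transcript length and library depth, UBE2T was the highest member in all 5 control groups, at 58.1 ± 11.1 (SD, n = 3) in the KYSE150 vector control and 92.7 ± 24.0 (SD, n = 2) in the KYSE180 siCont group of the TP63 experiment. UNG, the glycosylase that removes uracil from DNA, was the second highest in all 5 groups, between 43.5 and 67.3 RPKM, and FANCI was the third in 4 of the 5. BRCA2 was the lowest member in 4 of the 5 control groups, from 0.22 ± 0.04 (SD, n = 2) RPKM in the KYSE180 TP63 experiment to 1.03 ± 0.19 (SD, n = 2) in TE6. In the KYSE150 vector control the lowest was FANCM, a DNA translocase of the core complex, at 1.89 ± 0.16 RPKM (SD, n = 3), while BRCA2 was at 2.94 ± 0.94. The median of the 36 members was 6.55 to 10.4 RPKM across the control groups, and that of all genes with a transcript length was 5.09 to 10.3. Controls of the same line differed between experiments, and these levels are given as a description. The log2 ratio of control RPKM, TP63 over BRDT experiment, had a median over the members of -0.677 in KYSE180 (range -2.54 to 1.14) and -0.638 in KYSE150 (range -1.89 to 0.65). In KYSE180, BRCA2 was at 0.22 and 0.954 RPKM, ATM at 0.93 and 5.12 and BARD1 at 0.953 and 5.56. Across the 36 genes, which share these libraries, the ratio had a Spearman correlation with transcript length of -0.617 in KYSE180 and -0.65 in KYSE150.

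**Figure D1:**
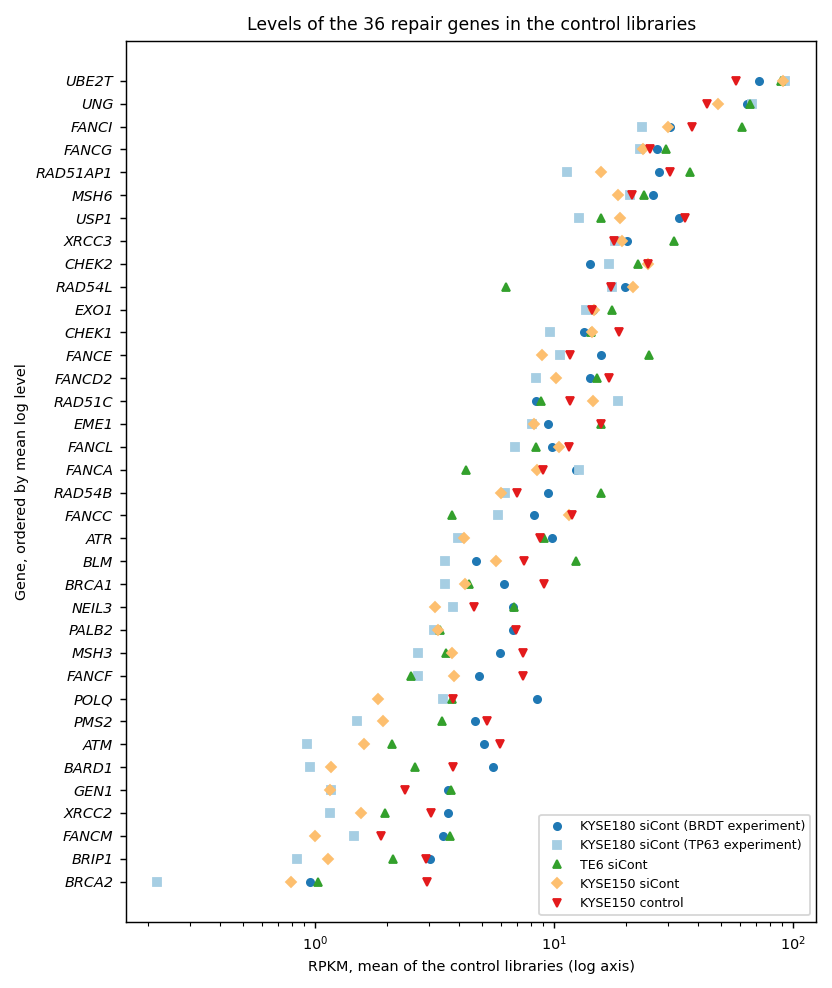
Levels of the 36 members in the control libraries, as RPKM on a log axis, with 1 row per gene and 1 symbol per control group (group means). UBE2T stands at the top in every group and BRCA2 at the bottom in all groups but the KYSE150 vector control.

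Promoters are printed for XRCC2 and BRCA2, which passed the test in the most comparisons, and for 4 of the 13 members that passed in 3, taken by their mean size of change (FANCI had no promoter entry), since these genes carry the contrasts described next. Each window runs from 100 bases before to 30 bases from the RefSeq gene start (GRCh38.p14), 5′ to 3′ in the direction of the gene, and capitals mark a match to an E2F site. XRCC2 lies at chr7:152676112-152676241 on the minus strand, BRCA2 at chr13:32315408-32315537 on the plus strand, and CHEK2 at chr22:28741791-28741920 on the minus strand. EXO1 lies at chr1:241848104-241848233, FANCD2 at chr3:10026337-10026466 and EME1 at chr17:50373129-50373258, all on the plus strand.
XRCC2: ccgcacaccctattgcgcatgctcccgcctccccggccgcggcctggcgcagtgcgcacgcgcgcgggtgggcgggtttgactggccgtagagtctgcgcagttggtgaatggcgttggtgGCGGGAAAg
BRCA2: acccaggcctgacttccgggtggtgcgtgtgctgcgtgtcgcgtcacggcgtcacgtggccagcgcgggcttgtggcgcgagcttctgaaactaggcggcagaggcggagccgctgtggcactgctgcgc
CHEK2: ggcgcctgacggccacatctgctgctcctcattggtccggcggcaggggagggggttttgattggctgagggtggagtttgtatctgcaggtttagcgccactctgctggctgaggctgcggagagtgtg
EXO1: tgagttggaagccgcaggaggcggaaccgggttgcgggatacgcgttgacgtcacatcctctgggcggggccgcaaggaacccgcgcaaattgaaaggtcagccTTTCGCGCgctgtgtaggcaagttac
FANCD2: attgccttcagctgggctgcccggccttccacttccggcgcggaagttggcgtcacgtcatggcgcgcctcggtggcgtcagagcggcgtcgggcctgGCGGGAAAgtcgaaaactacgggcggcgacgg
EME1: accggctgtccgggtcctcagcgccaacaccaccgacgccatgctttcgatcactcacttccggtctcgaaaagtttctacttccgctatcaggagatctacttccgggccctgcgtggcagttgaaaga

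The E2F search used TTTCCCGC, TTTCGCGC, TTTGCCGC and TTTGGCGC on both strands of the longer RefSeq window, from 250 bases before to 50 bases after the start, for which 34 of the 36 members had an entry. A match was present in 9 of these 34 members, or 26.5%, and in 3.33% of all 27305 promoters. The 9 were XRCC2, FANCA, FANCC, FANCD2, EXO1, MSH3, MSH6, PMS2 and GEN1, and the match began 21 bases after the start in XRCC2, 4 bases after it in EXO1 and 2 bases before it in FANCD2. The CHR element (TTTGAA or TTCGAA) was present in 6 of 34 members, or 17.6%, and in 16.6% of all promoters. The CCAAT box (CCAAT) was present in 18 of 34, or 52.9%, and in 35.7% of all promoters. The only overlap between these matches was that of both E2F strings in MSH3. A match is a string of letters in this window and does not show that a factor binds there.

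Loss of BRDT in KYSE180 raised more of the members than it lowered. A gene is said to have risen or fallen where limma, two-sided with Benjamini-Hochberg adjustment over all genes tested, put its adjusted p below 0.05 and its fold change, on the scale of log2(value + 1), was 0.5 or more in either direction. By this rule 9 of the 36 members rose and 2 fell, while 14.5% of the 13589 genes tested rose and 15.8% fell (30.3% in all). The median log2 fold change of the members was 0.13, or 0.045 without siBRDT replicate 3, and that of all genes was -0.01. These are bulk libraries, in which fewer cells in the phase that uses a gene and less RNA of it per cell cannot be told apart. The values of the 2 groups did not overlap for 21 of the 36 members here. They did not for 32 in KYSE180 siTP63, 26 in TE6 siBRDT, 33 in TE6 siTP63, 27 in KYSE150 siTP63 and 26 in BRDT-OE. The share over all genes was not counted, so these counts are not read as a trait of the members.

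The largest rise was that of RAD51C, which forms complexes with XRCC2 and with XRCC3 and is itself a Fanconi gene. RAD51C was at 262, 273 and 241 normalized counts in the siCont libraries and 569, 535 and 486 in the siBRDT libraries, a log2 fold change of 1.03 (SE 0.088, limma adjusted p = 1.7e-07). The values did not overlap, and the group mean rose 2.04-fold. XRCC3, which pairs with RAD51C, was at 616, 705 and 706 in siCont and at 1207, 1213 and 1185 in siBRDT (0.83, SE 0.072, adjusted p = 1.8e-07). BRCA1 was at 518, 526 and 523 in siCont and at 905, 883 and 1072 in siBRDT (0.86, SE 0.080, adjusted p = 4.1e-07). In both genes every siBRDT library lay above every siCont library. FANCF, the adaptor that joins parts of the core complex, was at 197, 157 and 180.5 in siCont and at 301, 292 and 277 in siBRDT (0.70, SE 0.103, adjusted p = 3.5e-05), again with no overlap.

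XRCC2, which acts in a complex with RAD51C, was at 181, 194 and 200.1 in the siCont libraries and at 254, 298 and 345 in the siBRDT libraries (0.63, SE 0.111, limma adjusted p = 0.00020). BRCA2 was at 88.2, 126 and 166 in siCont and at 153, 184 and 235 in siBRDT (0.61, SE 0.193, adjusted p = 0.013). The BRCA2 groups overlapped, and its call was lost without siCont replicate 1, where the log2 fold change was 0.38, or without siBRDT replicate 3, where it was 0.45. NEIL3, a glycosylase that opens certain interstrand links, rose by 0.64 on the log2 scale, the translocase RAD54B by 0.60 and FANCA by 0.55.

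FANCC and FANCI were the 2 members that fell. FANCC, a core complex subunit, was at 428, 428 and 403 in siCont and at 247, 237 and 263 in siBRDT (-0.75, SE 0.084, limma adjusted p = 2.6e-06). FANCI, the partner of FANCD2, was at 1609.7, 1645 and 1629 in siCont and at 1160.2, 1039.7 and 1141 in siBRDT (-0.55, SE 0.065, adjusted p = 4.4e-06). Neither gene overlapped between groups, but the FANCI value of -0.49 under upper-quartile scaling and of -0.46 with the length and GC trend removed was smaller than the limit of the rule. The other 25 members ranged from -0.45 for FANCL to 0.37 for CHEK2.

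In TE6 the same agent lowered more members than it raised. After siBRDT 10 of the 36 members fell and 2 rose, while 18.1% of the 13333 genes tested fell and 15.6% rose (33.7% in all). The median of the members was -0.26 and that of all genes -0.04. With upper-quartile scaling over genes above 0 the median of all genes moved to 0.24, and 20.3% of genes rose and 4.40% fell. Under that scaling 1 member fell and 2 rose, the member that fell being PMS2, and the median of the members was 0.016. With upper-quartile scaling over the genes tested, 9 members fell and 2 rose. The number that fell was 5 with the length and GC trend removed, where 11.8% of all genes fell and 11.1% rose. Leaving out 1 library at a time gave medians of the members from -0.34 to -0.22.

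The genes that rose in TE6 siBRDT were RAD51C and its partner XRCC3. RAD51C was at 274 and 276 normalized counts in the siCont libraries and at 439 and 450.4 in the siBRDT libraries (0.69, SE 0.131, limma adjusted p = 0.0010). XRCC3 was at 1117 and 1047 in siCont and at 1640.0 and 1859 in siBRDT (0.69, SE 0.106, adjusted p = 0.00023). The groups of both genes stood apart, and XRCC3 was at 0.49 with the length and GC trend removed, just under the limit of the rule.

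The largest falls in TE6 siBRDT were those of PMS2, ATM and XRCC2. PMS2, a subunit of the mismatch repair endonuclease, was at 193 and 209 in siCont and at 74.4 and 122 in siBRDT (-1.07, SE 0.218, limma adjusted p = 0.0017). PMS2 has 15 named copies or pseudogenes in the annotation, so its reads may be divided among them. ATM, the kinase that answers double-strand breaks, was at 287 and 328 in siCont and at 164 and 133 in siBRDT (-1.05, SE 0.163, adjusted p = 0.00025). In both genes the siBRDT libraries lay below the siCont libraries.

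XRCC2 was at 100.2 and 111 in the TE6 siCont libraries and at 35.6 and 71.7 in the siBRDT libraries (-1.05, SE 0.307, limma adjusted p = 0.014). BRCA2 was at 121 and 157 in siCont and at 79.8 and 71.7 in siBRDT (-0.86, SE 0.212, adjusted p = 0.0055). Both genes were lower in each siBRDT library than in each siCont library. Neither gene passed the rule with upper-quartile scaling over genes above 0 or with the length and GC trend removed. The XRCC2 call was lost without siCont replicate 1 (-1.12), siCont replicate 2 (-0.97) or siBRDT replicate 1 (-0.55), and the BRCA2 call without siCont replicate 2 (-0.67).

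FANCL, the ubiquitin ligase of the core complex, was at 240.0 and 236 in siCont and at 155 and 130.2 in siBRDT (-0.74, SE 0.154, limma adjusted p = 0.0020). BARD1 was at 169 and 155 in siCont and at 96.0 and 94.4 in siBRDT (-0.76, SE 0.179, adjusted p = 0.0042). The values of both genes were apart between the groups, and the BARD1 call was lost without siCont replicate 1, at -0.70. The nuclease subunit EME1 fell by 0.60, FANCM by 0.60, ATR by 0.54 and FANCD2 by 0.53 on the log2 scale. BARD1, FANCM, ATR and FANCD2 did not pass with the length and GC trend removed. EME1 lost its call without each TE6 library in turn but siBRDT replicate 2 (-0.58 and -0.63 without siCont replicates 1 and 2, -0.24 without siBRDT replicate 1, and -0.60 without either siTP63 replicate). FANCD2 lost it without siCont replicate 1 or 2 (-0.53 in both) and siBRDT replicate 1 (-0.35), FANCM without siCont replicate 2 (-0.50), and ATR without siCont replicate 2 (-0.48) or siBRDT replicate 1 (-0.49). The other 24 members ranged from -0.49 for GEN1 to 0.34 for FANCC.

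In order to test whether the response to siBRDT differed between the lines, the log2 fold change in TE6 was subtracted from that in KYSE180 in 1 fit. The fold changes of 15 members differed at an adjusted p under 0.05, and 14 of these were higher in KYSE180, while 21.8% of the 12612 genes tested were higher in KYSE180 and 18.8% lower (40.6% in all). The largest differences were 1.68 (SE 0.30, limma adjusted p = 0.00047) for XRCC2 and 1.47 (SE 0.32, adjusted p = 0.0017) for BRCA2, both of which rose in KYSE180 and fell in TE6. FANCC differed the other way, by -1.09 (SE 0.15, adjusted p = 6.6e-05), with -0.75 in KYSE180 and 0.34 in TE6. RAD51C and XRCC3, which rose in both lines, differed by 0.34 and 0.14 without passing the test. The siBRDT fold change had a Spearman correlation with transcript length of -0.111 in KYSE180 and -0.455 in TE6 across the 36 members, and BARD1 (0.37) and ATR (0.32) no longer differed with the length and GC trend removed. Under upper-quartile scaling over genes above 0 only 5 members differed, 4 of them higher in KYSE180, namely XRCC2, BRCA2, PMS2 and EME1.

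**Figure D2:**
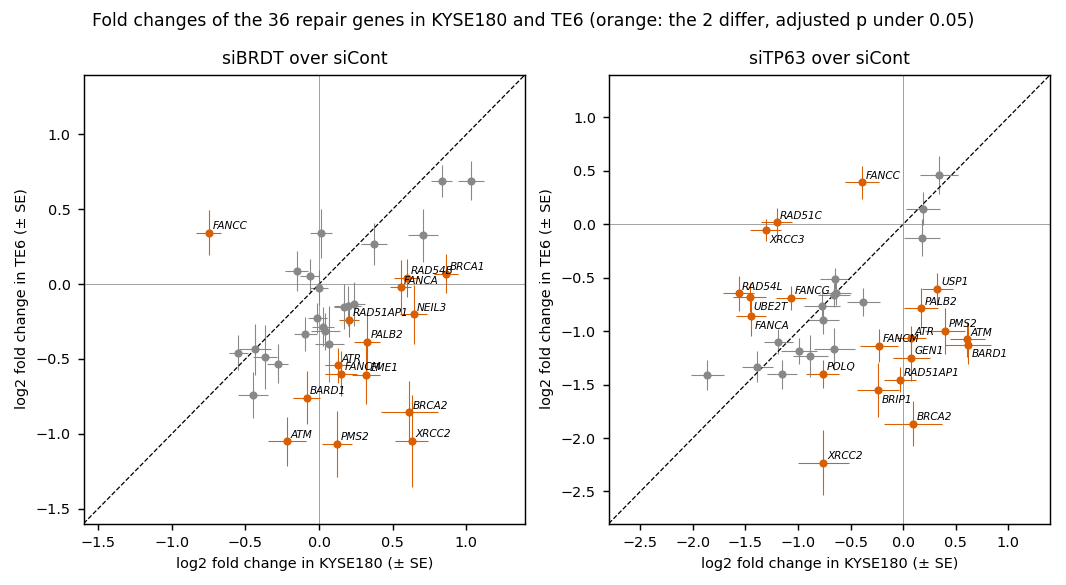
Log2 fold change of each of the 36 members in KYSE180 (horizontal axis) against TE6 (vertical axis), for siBRDT on the left and siTP63 on the right, with error bars of 1 SE and a dashed line of equal change. Members whose fold changes differed between the lines are named and orange, 15 for siBRDT and 20 for siTP63, and XRCC2 and BRCA2 sit in the lower right of the siBRDT panel.

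Loss of TP63 in KYSE180 lowered most of the members. After siTP63 20 of the 36 members fell and 2 rose, while 25.7% of the 13924 genes tested fell and 23.6% rose (49.3% in all). The median log2 fold change of the members was -0.65 and that of all genes 0.00. Upper-quartile scaling over genes above 0 moved the median of all genes to 0.22 and their calls to 33.4% up and 18.3% down. Under it 15 members fell and 5 rose, and with upper-quartile scaling over the genes tested 16 fell and 5 rose, the median of the members being -0.44 and -0.46.

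CHEK2, the kinase downstream of ATM, fell the most, from 536 and 592 normalized counts in siCont to 153 and 155 in siTP63 (-1.86, SE 0.159, limma adjusted p = 5.1e-10). CHEK2 has 7 named pseudogenes in the annotation. RAD54L, a DNA motor protein of strand exchange, was at 929.6 and 902 in siCont and at 309 and 308 in siTP63 (-1.57, SE 0.145, adjusted p = 2.0e-09). UBE2T was at 1414 and 1961 in siCont and at 593 and 616 in siTP63 (-1.46, SE 0.153, adjusted p = 1.5e-08). In all 3 genes both siTP63 libraries lay below both siCont libraries. FANCA was at 1252 and 1102 in siCont and at 421 and 438 in siTP63 (-1.45, SE 0.144, adjusted p = 6.0e-09).

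The other falls in KYSE180 siTP63 were led by EXO1 (-1.39), the exonuclease that extends resection, XRCC3 (-1.31), RAD51C (-1.20), FANCI (-1.19), FANCD2 (-1.15) and FANCG (-1.07). BLM (-0.99), EME1 (-0.88), RAD54B (-0.77), POLQ, CHEK1 and XRCC2 (-0.76 each), FANCE (-0.66), NEIL3 and MSH6 (-0.65 each) and UNG (-0.64) completed them. The XRCC2 call was lost without siCont replicate 1 or siTP63 replicate 1 (-0.56 in both cases) and the NEIL3 call without siTP63 replicate 1 (-0.58). FANCE, MSH6, UNG and NEIL3 were between -0.42 and -0.46 under both upper-quartile scalings, and none of the 4 passed there.

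The 2 members that rose were ATM and BARD1. ATM was at 201 and 206 in siCont and at 281 and 344 in siTP63 (0.61, SE 0.167, limma adjusted p = 0.0030). BARD1 was at 69.2 and 107 in siCont and at 129 and 136 in siTP63 (0.62, SE 0.218, adjusted p = 0.018). Values did not overlap in either gene. The ATM call was lost without siTP63 replicate 2 (0.46), and the BARD1 call without siCont replicate 1 (0.31), siTP63 replicate 1 (0.65) or siTP63 replicate 2 (0.58). Both were lost with the length and GC trend removed, at 0.17 for ATM and 0.29 for BARD1. The other 14 members ranged from -0.39 for FANCC to 0.40 for PMS2, with BRCA2 at 0.09 and BRCA1 at -0.38.

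TE6 siTP63 showed the widest fall. No member rose and 30 of the 36 fell, while 20.6% of the 13333 genes tested fell and 18.3% rose (38.9% in all). The median of the members was -0.95 and that of all genes -0.01. By DESeq2 and edgeR on the recovered reads 0 rose as well, and by limma 2 members above 0, FANCC and FANCF, had an unadjusted p under 0.05. RAD51AP1, a DNA-binding protein that promotes strand exchange, was at 896 and 917 in siCont and at 322 and 337 in siTP63 (-1.46, SE 0.116, limma adjusted p = 1.1e-06). FANCD2 was at 894 and 892 in siCont and at 329.8 and 343 in siTP63 (-1.41, SE 0.132, adjusted p = 3.9e-06). CHEK2 was at 476 and 525 in siCont and at 208 and 169 in siTP63 (-1.41, SE 0.140, adjusted p = 5.9e-06). None of these groups overlapped. BRIP1, a helicase that binds BRCA1, was at 180.2 and 211 in siCont and at 86.3 and 50.3 in siTP63 (-1.55, SE 0.255, adjusted p = 0.00030), with a wider gap between its siTP63 libraries than in the other 3 genes.

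Larger falls were found for 2 members with a lower mean over the TE6 libraries. XRCC2 fell by 2.23 on the log2 scale, from 100.2 and 111 in siCont to 19.9 and 23.7 in siTP63, and BRCA2 was at 121 and 157 in siCont and at 37.2 and 37.0 in siTP63 (-1.87). ATM, which rose in KYSE180, was at 287 and 328 in siCont and at 151 and 139 in siTP63 (-1.07, SE 0.163, limma adjusted p = 0.00016). BARD1 was at 169 and 155 in siCont and at 69.0 and 78.4 in siTP63 (-1.13, SE 0.179, adjusted p = 0.00023). For all 4 genes the groups stood apart.

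POLQ (-1.40), the polymerase of theta-mediated end joining, EXO1 (-1.33), the resolvase GEN1 (-1.25), EME1 (-1.23), BLM (-1.19), NEIL3 (-1.17), FANCM (-1.14), FANCI (-1.1), ATR (-1.07) and PMS2 (-1.0) were the next largest falls. CHEK1 (-0.90), FANCA (-0.86), PALB2 (-0.79), RAD54B (-0.76), BRCA1 (-0.73), FANCG (-0.69), UBE2T (-0.68), FANCE (-0.66), RAD54L (-0.65), UNG (-0.64), USP1 (-0.61) and MSH6 (-0.51) fell by less. RAD54L lost its call without siCont replicate 1 or siTP63 replicate 1 (-0.57 in both cases), PALB2 without siTP63 replicate 1 (-0.64), and USP1 without siCont replicate 2 (-0.53) or siTP63 replicate 1 (-0.43). MSH6 did not pass under either upper-quartile scaling, by DESeq2 or with the length and GC trend removed. RAD54L, FANCE, UBE2T and USP1 did not pass with upper-quartile scaling over genes above 0, nor BRCA1, RAD54B and USP1 with the trend removed. The 6 that did not pass in the main test were MSH3, XRCC3, RAD51C, FANCL, FANCC and FANCF, between -0.13 and 0.46.

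Across KYSE180 and TE6, which share no libraries, 18 members fell in both lines after siTP63 (6.6% of the 12780 genes tested in both), 10 fell in TE6 without a call in KYSE180 (10.1%), and the 2 genes ATM and BARD1 passed in opposite directions (7.79%). The difference between the lines passed the test for 20 members, 13 of them higher in KYSE180 and 7 lower, while 28.6% of the 12780 genes tested were higher and 30.6% lower (59.2% in all). BRCA2 differed by 1.96 (SE 0.33, limma adjusted p = 8.5e-05), BARD1 by 1.74 (SE 0.28, adjusted p = 6.3e-05) and ATM by 1.68 (SE 0.20, adjusted p = 3.3e-06), each with the lower value in TE6. XRCC3 and RAD51C differed the other way, by -1.25 (SE 0.16, adjusted p = 4.8e-06) and -1.22 (SE 0.17, adjusted p = 1.1e-05). Across the 36 members the siTP63 fold change had a Spearman correlation with transcript length of 0.414 in KYSE180 and -0.291 in TE6. With the length and GC trend removed BRIP1, FANCG, FANCM, POLQ and UBE2T no longer differed, and the other 15 did. CHEK2, EXO1, FANCI and FANCD2 fell in both lines, and their fold changes differed by -0.45 to 0.25 without passing the test.

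**Figure D3:**
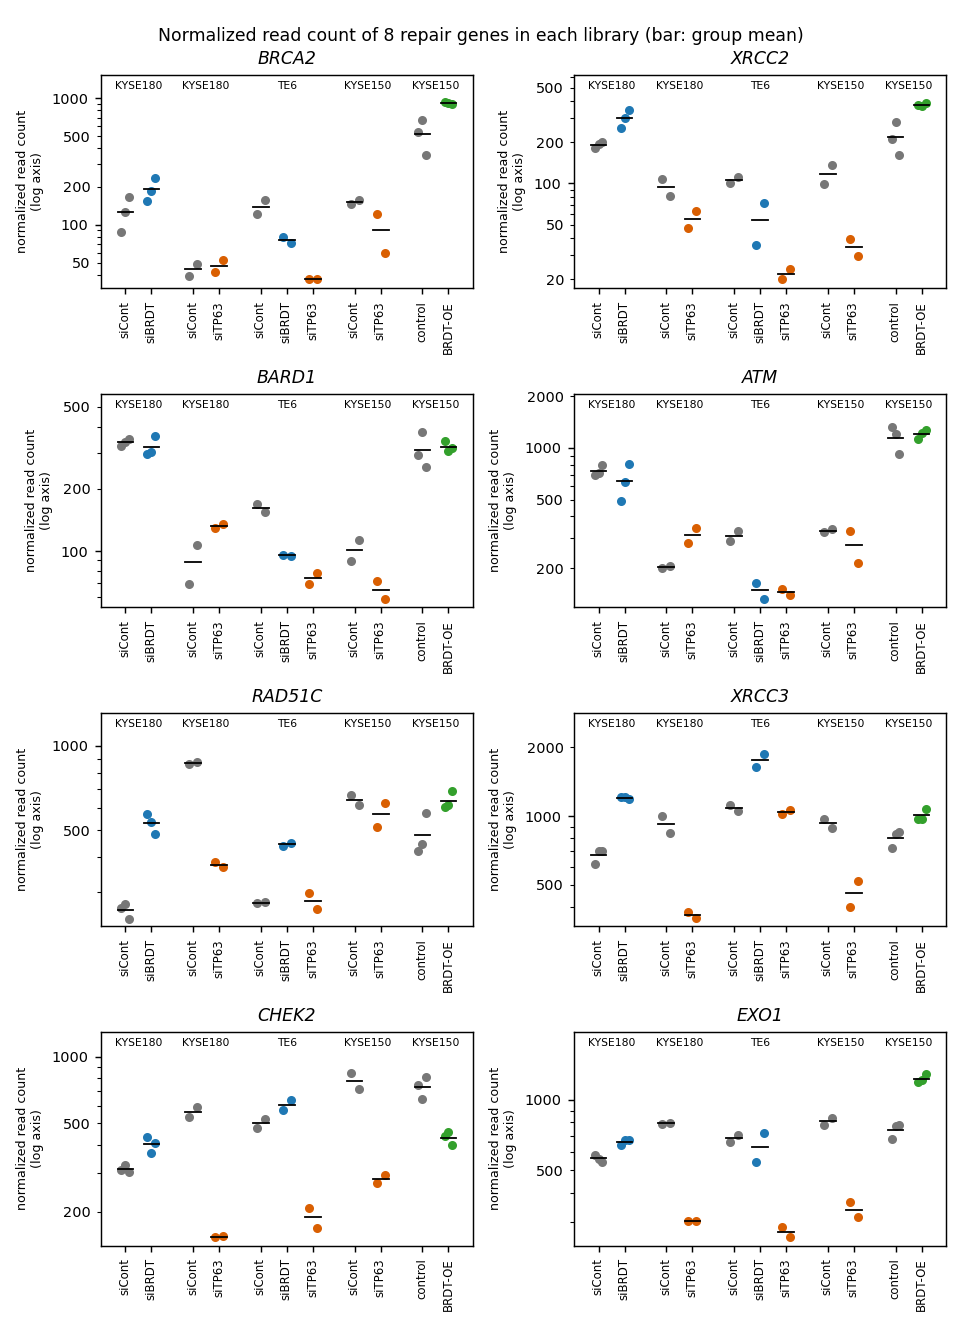
Normalized read count of 8 members in every library, on a log axis, with 1 point per library and a bar at the group mean, for the 5 experiments from left to right. The means of BRCA2 and XRCC2 sit above siCont in KYSE180 siBRDT, with overlapping points for BRCA2, and below it in TE6 siBRDT, those of BARD1 and ATM sit above siCont in KYSE180 siTP63 and below it in TE6 siTP63, and CHEK2 is lowest in the siTP63 libraries of all 3 lines.

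In KYSE150 siTP63 no gene passed the rule with limma, 0% of the 12335 tested, although 17 members had an unadjusted p under 0.05, all of them below 0, against 17.8% of all genes in either direction. The median of the members was -0.67 and that of all genes -0.01, and 33 of the 36 members were below 0. By edgeR 0 members passed and by DESeq2 7 fell, while 2.14% of all genes fell and 1.67% rose by DESeq2. With the length and GC trend removed 12 members fell, while 5.24% of all genes fell and 3.53% rose. Leaving out 1 library at a time gave medians of the members from -0.83 to -0.47, and the number that fell moved with the library left out. The same-numbered replicates of this experiment deviated in opposite directions (correlation -0.70). With the numbers crossed as a block, 21 members fell, while 14.4% of all genes fell and 13.2% rose. This alternative was added after the data were seen, because of that correlation. Crossing the numbers then lowers the spread by construction, so more genes pass, and no conclusion is drawn from it. Whether the replicate numbers are crossed or a label was exchanged cannot be told from the sources used here.

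The members with the largest values in KYSE150 siTP63, named here after their values were seen, were XRCC2, CHEK2 and EXO1. XRCC2 was at 99.5 and 135 in siCont and at 39.1 and 29.3 in siTP63, a log2 fold change of -1.75 (limma adjusted p = 0.11). CHEK2 was at 846 and 714 in siCont and at 271 and 291 in siTP63 (-1.46, adjusted p = 0.11). EXO1 was at 781 and 836 in siCont and at 364 and 314 in siTP63 (-1.25, adjusted p = 0.11). The groups did not overlap in these 3 genes. ATM, at 322 and 336 in siCont, was at 329 and 214 in siTP63 (-0.31, SE 0.27, adjusted p = 0.60), and BARD1 went from 89.1 and 113 to 71.5 and 58.6 (-0.63, SE 0.29, adjusted p = 0.32). ATM overlapped between the groups and BARD1 did not. Of all 36 members, 23 were below 0 in the siTP63 comparison of each of the 3 lines, as were 2526 of the 11506 genes tested in all 3.

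The fold changes in KYSE150 siTP63 differed from those in KYSE180 for 0 members and from those in TE6 for 0 members by limma, while 1.62% of all genes differed from KYSE180 (0.774% higher and 0.849% lower in KYSE150) and 2.49% from TE6 (1.53% higher and 0.962% lower). At an unadjusted p under 0.05 there were 8 and 9 members, against 26.4% and 23.7% of all genes. Without KYSE150 siTP63 replicate 1 the first count was 7 (24.7% of all genes), and without KYSE150 siTP63 replicate 2 the second was 9 (25.6%), or 1 without KYSE150 siCont replicate 2 (1.43%). With the length and GC trend removed the counts were 4 (12.2%) and 2 (12.4%). The estimated differences ran from -1.24 to 1.03 against KYSE180 and from -1.03 to 1.14 against TE6.

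In KYSE150 cells with BRDT overexpression 5 members rose and 1 fell, while 10.5% of the 12765 genes tested rose and 16.0% fell (26.5% in all). The median of the members was 0.20 and that of all genes 0.02. With upper-quartile scaling over the genes tested 4 members rose and 1 fell, and over all genes 890 rose and 2537 fell instead of 1343 and 2043, or 966 and 2436 with upper-quartile scaling over genes above 0. BRCA2 was at 544, 673 and 354 normalized counts in the vector control and at 933, 921 and 899 in BRDT-OE (0.86, SE 0.183, limma adjusted p = 0.0030). XRCC2 was at 211, 279 and 162 in the control and at 373, 365 and 384 in BRDT-OE (0.82, SE 0.165, adjusted p = 0.0022). In both genes the control libraries were spread widely, with replicate 3 the lowest, and all BRDT-OE libraries lay above them.

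EXO1 was at 679, 771 and 778 in the vector control and at 1193, 1221 and 1287 in BRDT-OE (0.73, SE 0.080, limma adjusted p = 5.0e-05). POLQ was at 530.3, 555 and 398 in the control and at 697, 801 and 742 in BRDT-OE (0.61, SE 0.123, adjusted p = 0.0022), and its call was lost without control replicate 3, at 0.46. CHEK2 was the member that fell, from 745, 645 and 806 to 437, 457 and 398 (-0.76, SE 0.10, adjusted p = 0.00017). None of these 3 genes overlapped between the groups. GEN1 rose by 0.60 on the log2 scale, and by 0.50, just under the limit, with upper-quartile scaling over the genes tested. The other 30 members ranged from -0.39 for EME1 to 0.46 for BLM.

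In order to compare the agents within a line, the log2 fold change of siBRDT was subtracted from that of siTP63. The 2 agents were used in KYSE180 in separate experiments with separate siCont libraries, so that agent and experiment cannot be told apart there. In KYSE180 26 members differed, 21 lower under siTP63 and 5 higher, while 33.7% of all genes were lower and 31.3% higher (65.1% in all). Of the 5 higher members, BARD1 (0.25), MSH3 (0.28), ATM (0.24) and GEN1 (-0.11) no longer differed with the length and GC trend removed, while FANCL did. BARD1 also no longer differed without siCont replicate 1 of the TP63 experiment (0.39), and GEN1 without that library (0.32) or siTP63 replicate 2 (0.36). CHEK2 was at 0.37 under siBRDT and -1.86 under siTP63, a difference of -2.24 (SE 0.15, limma adjusted p = 2.4e-09). RAD51C, XRCC3 and FANCA rose under siBRDT and fell under siTP63, with differences of -2.23, -2.14 and -2.0. In TE6, where the contrast is between the siTP63 and siBRDT libraries themselves, 29 members differed, 28 lower in siTP63, while 19.9% of all genes were lower and 19.3% higher (39.2% in all). CHEK2 differed by -1.68 (SE 0.14, adjusted p = 3.0e-06), POLQ by -1.25 and RAD51AP1 by -1.22. FANCL was the member that was higher in siTP63, by 0.88 (SE 0.15, adjusted p = 0.00074). With upper-quartile scaling over genes above 0 it was at 0.69 and did not pass, and 24 members were lower and 0 higher.

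By role, the 6 cofactors of strand exchange (RAD51C, XRCC2, XRCC3, RAD51AP1, RAD54L and RAD54B) had the highest median in KYSE180 siBRDT, 0.61, with 4 that rose, and a median of -0.99 with 5 that fell in KYSE180 siTP63. In TE6 siBRDT they moved in both directions, with RAD51C and XRCC3 up and XRCC2 down. All 5 genes of resection, branch resolution and theta-mediated joining (EXO1, BLM, EME1, GEN1 and POLQ) fell in TE6 siTP63, with a median of -1.25, and 4 of them fell in KYSE180 siTP63. In BRDT-OE 3 of these 5 rose, namely EXO1, POLQ and GEN1. All 4 checkpoint kinases fell in TE6 siTP63, and CHEK1 and CHEK2 fell in KYSE180 siTP63 while ATM rose. Over all genes 14.5% rose in KYSE180 siBRDT and 10.5% in BRDT-OE, while 25.7% fell in KYSE180 siTP63 and 20.6% in TE6 siTP63. The role groups here and below are small, and no difference between roles was tested.

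Of the 8 genes of the Fanconi core complex and UBE2T, 5 fell in TE6 siTP63 and 4 in KYSE180 siTP63, where FANCA, FANCE, FANCG and UBE2T were common to both. FANCF was at 0.46 in TE6 siTP63 and at 0.34 in KYSE180 siTP63, and FANCC was at 0.39 and -0.39. FANCD2 and FANCI fell in both lines after siTP63. The 5 BRCA and partner genes all fell in TE6 siTP63, and none of them fell in KYSE180 siTP63. Of the 5 mismatch and base excision repair members, MSH6, UNG and NEIL3 fell in both lines after siTP63, and PMS2 in TE6. MSH3, at -0.44 to 0.18, was the 1 member that passed in none of the 6 comparisons. XRCC2 passed in 5 comparisons and BRCA2 in 4. The number of comparisons passed was not counted over all genes. Of these, 26.5% to 49.3% passed in each comparison but KYSE150 siTP63 (0%).

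**Figure D4:**
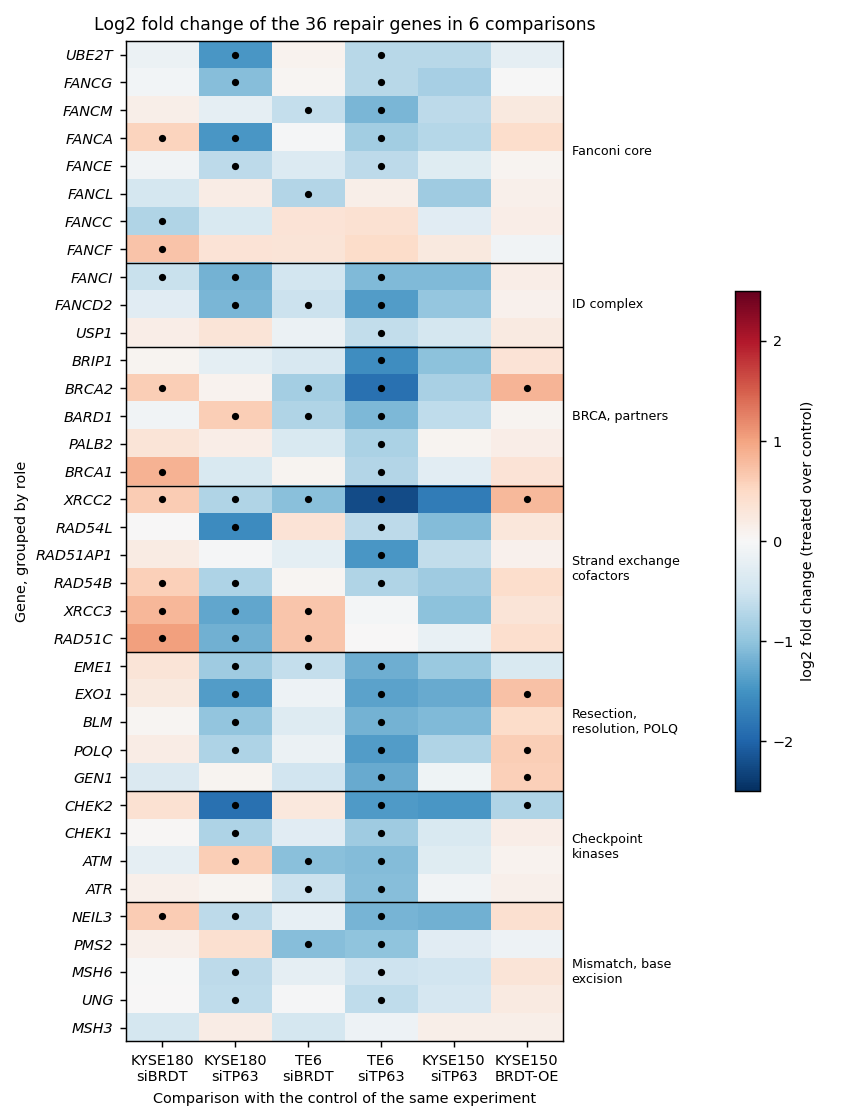
Log2 fold change of the 36 members (rows, grouped by role) in the 6 comparisons (columns), from blue for lower to red for higher, with a dot where the member passed the rule. The column of TE6 siTP63 holds 30 dots, all blue, that of KYSE150 siTP63 none, and the rows of XRCC2 and BRCA2 hold both colors.

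Counting of the reads is not stated to use strand, and the library kit used does not mark it. Exons of 20 members overlap a gene on the other strand and those of 5 members a gene on the same strand in GENCODE 44. XRCC3 (with KLC1), RAD54L (LRRC41), CHEK2 (HSCB), FANCI (POLG) and FANCA (ZNF276) are among them, as are ATM, EXO1, FANCC, FANCD2, FANCF, FANCL, BRCA1 and EME1, and their values are uncertain to that extent. BRCA2, XRCC2, RAD51C and BARD1 have no such overlap. BRCA1, RAD51AP1 and FANCD2 have 1 named pseudogene each and UNG has 2.

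A further 46 genes of homologous recombination and the Fanconi pathway were counted beside the members. Of these, 8 rose and 2 fell in KYSE180 siBRDT, 8 rose and 12 fell in TE6 siBRDT, and 4 rose and 18 fell in each siTP63 comparison of KYSE180 and TE6. In KYSE180 siBRDT the annealing protein RAD52 rose by 1.01 and FAAP24 by 1.03 on the log2 scale, and the paralog RAD51B fell by 0.64. In KYSE180 siTP63 the helicase RTEL1 fell by 2.07, and in TE6 siTP63 the nuclease DNA2 fell by 1.59. In BRDT-OE 5 rose and 1 fell, led by the checkpoint mediator CLSPN at 0.98. The median of this list was -0.30 in KYSE180 siTP63 and -0.40 in TE6 siTP63, where that of the members was -0.65 and -0.95.

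Of 20 other mismatch and base excision repair genes, 9 fell and 0 rose in KYSE180 siTP63, led by NTHL1 (-1.80) and the flap endonuclease FEN1 (-1.57), and 4 fell and 1 rose in TE6 siTP63. In siBRDT 2 rose and 0 fell in KYSE180, and 5 rose and 2 fell in TE6. Of 14 genes of non-homologous end joining, 5 fell and 1 rose in KYSE180 siTP63, and 6 fell and 2 rose in TE6 siTP63. LIG4, the ligase of that pathway, rose by 1.55 in KYSE180 siTP63 and fell by 0.67 and 1.19 in KYSE180 and TE6 siBRDT. In BRDT-OE 2 of the 20 rose and 2 fell, and 3 of the 14 rose and 1 fell. In siBRDT 1 of the 14 rose and 3 fell in KYSE180, and 3 rose and 3 fell in TE6.

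The cell cycle lists moved with the members in the siTP63 comparisons, and their part in the members' changes was not tested. Of 20 S phase genes 19 fell in KYSE180 siTP63, with a median of -1.18, led by GINS2 (-2.3), and CCNE2 rose by 1.14. In TE6 siTP63 12 fell, with a median of -0.63, led by RRM1 (-1.5). Of 16 G2 and M phase genes 14 fell in KYSE180 siTP63 (median -1.02) and all 16 in TE6 siTP63 (median -1.46), led by AURKB (-1.82) in KYSE180 and by CENPF (-2.5) in TE6. In KYSE150 siTP63 the medians were -0.74 for S phase and -0.88 for G2 and M phase genes, with no gene past the rule.

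In siBRDT the S phase genes had medians of -0.08 in KYSE180 (1 rose, 3 fell) and -0.05 in TE6 (1 rose, 4 fell). The G2 and M phase genes had a median of -0.13 in KYSE180, where CCNA2 fell by 0.75, and of -0.66 in TE6, where 9 of 16 fell, led by TOP2A (-1.34). In BRDT-OE 7 of 20 S phase genes rose and 0 fell, with a median of 0.37, led by CCNE2 (1.33) and RRM2 (1.18), and none of the 16 G2 and M phase genes passed the rule.

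Of 19 E2F, RB and MuvB regulators, 2 rose and 1 fell in KYSE180 siBRDT, where E2F1, an activator of S phase genes, rose by 1.35 and the RB relative RBL2 fell by 0.67. In TE6 siBRDT 3 rose and 8 fell, with E2F1 up by 0.79 and E2F7, a repressor, down (-1.24). In KYSE180 siTP63 3 rose and 7 fell, with MYBL2 down (-1.16) and RBL2 up (1.17), and in TE6 siTP63 1 rose and 9 fell, with E2F7 at -2.55. In BRDT-OE 7 rose and 2 fell, with MYBL2 at 0.99 and RBL2 at -0.91. Of 15 p53 target genes, 0 rose and 4 fell in KYSE180 siBRDT, led by CDKN1A (-1.32), and 2 rose and 1 fell in TE6 siBRDT. In siTP63 2 rose and 5 fell in KYSE180 and 2 rose and 6 fell in TE6, and in BRDT-OE 3 rose and 4 fell. In KYSE150 siTP63 none of the lists held a gene past the rule with limma.

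**Figure D5:**
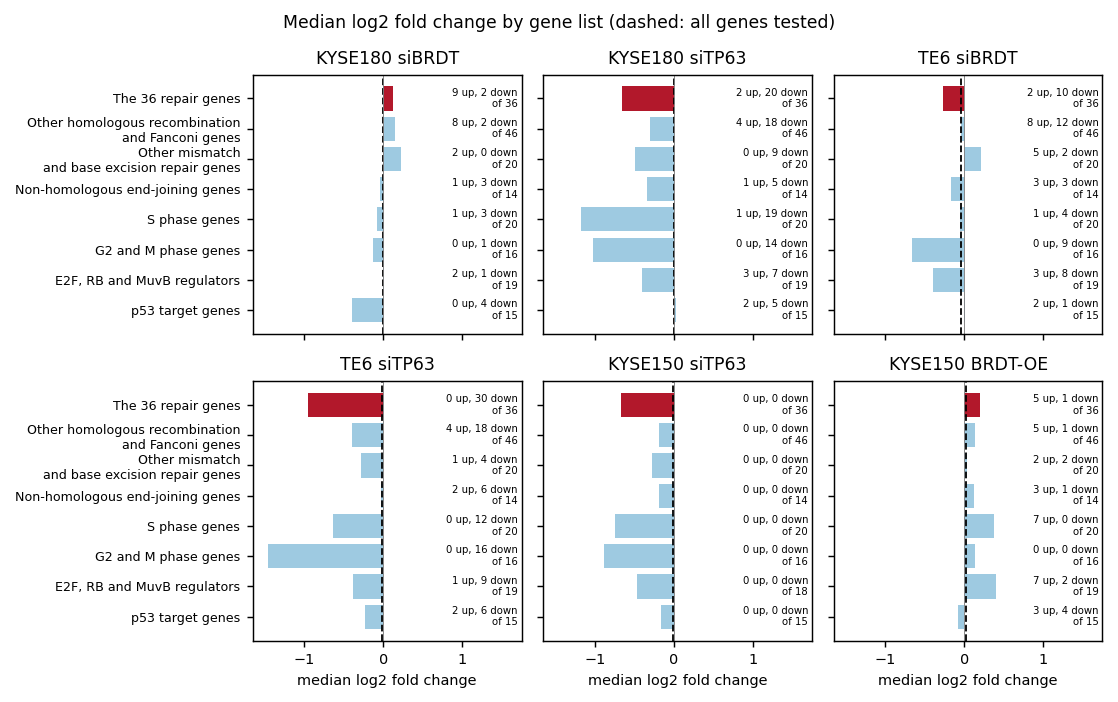
Median log2 fold change of the 36 members (red) and of 7 other gene lists (blue) in the 6 comparisons, with the numbers that rose and fell at the right and a dashed line at the median of all genes tested. The members, S phase and G2 and M phase genes are all below the dashed line in the 3 siTP63 panels, and in KYSE180 siBRDT the members are above it while both cell cycle lists are below it.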

How the data were processed

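RNA was isolated with QIAzol and made into libraries with the Illumina TruSeq RNA kit V2. Per the study's methods and processing notes, the authors mapped reads to hg38 (STAR 2.6.0), counted them per gene (HTSeq 0.11.2) and normalized them (DESeq2 1.24.0). Annotation and strand setting were not given in the sources used here. The deposited values are a signal, namely counts that the authors divided by a size factor per library, separately in each of 5 tables. In every library 100% of values were whole multiples of 1 read (tolerance 1e-06), and 0 reads allows up to 3 by counting error alone. Low genes have understated fold changes on the log2(value + 1) scale.

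The main test was limma 3.58.1 (R 4.3.3; lmFit, eBayes with trend) on log2(value + 1) for genes with a table mean of at least 10, two-sided, with Benjamini-Hochberg adjustment, as adjusted p under 0.05 and log2 fold change of at least 0.5. Tables were kept apart in the fits of treated against control libraries, and TE6 was a single fit of 3 groups. A difference that involved 2 tables was made in 1 fit of the libraries of both, with a shared estimate of the spread. Differences between lines or agents were contrasts of 2 fold changes, at adjusted p under 0.05 alone. RPKM used the recovered reads and GENCODE 44 transcript lengths. Alternatives were edgeR 4.0.16 and DESeq2 1.42.0 on recovered reads, pseudocount 0.1, no filter, upper-quartile scaling, a replicate block, no fold-change limit, removal of a length and GC trend (splines with 4 degrees of freedom), fits of 2 TE6 groups, and leaving out each library. Upper-quartile scaling over the genes tested and a crossed block were added after the data were seen. The fits were first run on simulated counts with known changes and the same spread set for all genes and libraries. Those counts do not show how the tests behave with the uneven KYSE150 TP63 replicates or a length trend.

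The members and lists were chosen with earlier results of these data known. Full values are given for the called members of largest change, up to 4 falls and 4 rises per comparison with a table mean of at least 100, and for members called in both directions under 1 agent in different lines. Of other lists, up to 2 rises and 2 falls per comparison are named. Promoters are those of 6 members called in the most comparisons, ties broken by mean size of change. RAD54B and FANCI had no promoter entry.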

Additional observations from a re-analysis of the deposited data

Results flagged for a closer look

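The response to an siRNA differed between KYSE180 and TE6 by a test of the difference itself (limma, adjusted p under 0.05) for the members named here. Values are the log2 fold change in KYSE180 minus that in TE6, and the lines were measured in separate experiments, so that line and experiment cannot be told apart.

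For siBRDT 15 members differed (41.7%), against 40.6% of the 12612 genes tested. The value was 1.675 for XRCC2, 1.471 for BRCA2, 1.191 for PMS2, 0.9224 for EME1, 0.8431 for NEIL3, 0.8342 for ATM and 0.7914 for BRCA1. It was 0.7448 for FANCM, 0.7136 for PALB2, 0.6735 for BARD1, 0.6711 for ATR, 0.5741 for FANCA, 0.5545 for RAD54B and 0.4401 for RAD51AP1. FANCC, at -1.094, was the member with the lower value in KYSE180. The test was no longer passed by RAD54B without TE6 siCont replicate 2 (0.44), by FANCA without TE6 siCont replicate 2 (0.50) or TE6 siBRDT replicate 1 (0.33), or by ATM without TE6 siCont replicate 2 (0.74). With the length and GC trend removed BARD1 (0.37) and ATR (0.32) did not pass. With upper-quartile scaling over genes above 0 only XRCC2, BRCA2, PMS2, EME1 and FANCC still passed.

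For siTP63 20 members differed (55.6%), against 59.2% of the 12780 genes tested. The value was 1.961 for BRCA2, 1.742 for BARD1, 1.683 for ATM, 1.471 for XRCC2, 1.423 for RAD51AP1, 1.394 for PMS2, 1.328 for GEN1 and 1.311 for BRIP1. It was 1.145 for ATR, 0.9553 for PALB2, 0.9312 for USP1, 0.9082 for FANCM and 0.6343 for POLQ. It was lower in KYSE180 for XRCC3 (-1.254), RAD51C (-1.223), RAD54L (-0.9194), FANCC (-0.7805), UBE2T (-0.7773), FANCA (-0.5878) and FANCG (-0.3748). FANCA no longer passed without TE6 siCont replicate 1 (-0.51) or TE6 siTP63 replicate 2 (-0.46), POLQ without KYSE180 siTP63 replicate 2 (0.50), and FANCG without any 1 of 6 libraries, namely both KYSE180 siTP63 and all 4 TE6 siCont and siTP63 libraries (-0.41 to -0.34). With the length and GC trend removed BRIP1 (0.43), FANCM (0.061), UBE2T (-0.17), POLQ (-0.15) and FANCG (-0.077) did not pass.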

How the results depend on the processing

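Of 1236 alternative values for members named with a fold change, 1133 (91.7%) kept direction and side of the threshold, 76 fell below it, 26 passed it and 1 reversed, namely ATM in KYSE150 siTP63, at 0.00079 without siTP63 replicate 2 and -0.62 without siTP63 replicate 1. In KYSE180 siBRDT the falls numbered 1 with upper-quartile scaling or the length and GC trend removed (median 0.23). Without the fold-change limit 6 fell and 15 rose, while 4044 of the 13589 genes tested fell and 3893 rose. In KYSE180 siTP63 the rises numbered 1 with no filter or DESeq2, 0 with the trend removed and 5 under either upper-quartile scaling (medians -0.44 and -0.46). In TE6 siBRDT 1 fell with upper-quartile scaling, where the median reversed to 0.016. There 5 members fell and 1 rose with the trend removed (median -0.049), while 11.8% of all genes fell and 11.1% rose. In TE6 siTP63 the median was -0.87 with upper-quartile scaling and -0.77 with the trend removed, and 2 rose without the fold-change limit and 1 with the trend removed or upper-quartile scaling over the genes tested. In KYSE150 siTP63 7 fell by DESeq2 and 12 with the trend removed. In BRDT-OE the median was 0.12 and 0.099 under the upper-quartile scalings, and without the fold-change limit 2 fell and 18 rose. The shares over all genes without that limit are not given here for TE6 siTP63 and BRDT-OE. Differing members numbered 5 for siBRDT with upper-quartile scaling, and, with the trend removed, 4 and 2 for KYSE150 against KYSE180 and TE6 after siTP63. In TE6, siTP63 minus siBRDT, upper-quartile scaling changed the split of all genes to 566 higher and 1824 lower. The cause was not tested for any of these.

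Leaving out 1 library at a time gave medians of 0.045 to 0.15 in KYSE180 siBRDT, -0.71 to -0.58 in KYSE180 siTP63, -0.34 to -0.22 in TE6 siBRDT and -1.04 to -0.86 in TE6 siTP63. It gave 0 to 2 rises in KYSE180 siTP63, 4 to 13 falls in TE6 siBRDT, 1 to 5 falls in KYSE150 siTP63, and 0 to 7 and 0 to 9 differing members for KYSE150 against KYSE180 and TE6.

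Same-numbered replicates shared only a number, with correlations of their deviations of -0.70 in KYSE150 siTP63 and -0.084 to 0.18 in the others. The replicate block left the member counts of the 6 comparisons as they were, except in KYSE150 siTP63, where 1 fell. With the numbers crossed, an alternative added after the data were seen, 21 fell there (14.4% of all genes). The crossing was chosen for that negative correlation and lowers the spread by construction, so no conclusion is drawn from it.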
